A study of Mus musculus with 6 samples.

Results

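Of the 55487 gene rows in each deposited table, 40 carry the symbols of 39 genes of glucose breakdown and of the response to low oxygen, and these were examined in mammary tumours of MMTV-PyMT mice. They comprise 21 genes of glycolysis in 22 rows (glucose and lactate transporters, enzymes and the regulators of phosphofructokinase) and 18 hypoxia-induced or oxygen-sensing genes outside glycolysis. Members were found by an exact match of the symbol in the row identifier, and Aldoa is the gene with a second row. All 40 rows passed the filter on low counts, as did 17396 rows of the whole table.

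Glycolysis splits glucose into pyruvate, and tumours often run it at a high rate and send the pyruvate to lactate, which leaves the cell through monocarboxylate transporters. In low oxygen the prolyl hydroxylases of the EGLN family no longer mark the HIF-1α protein for destruction, and HIF with its partner ARNT then switches on glycolytic genes together with genes for blood vessel growth, pH control, mitophagy and collagen modification. HIF-1α is controlled mainly at the level of its protein, so the Hif1a transcript is not a readout of HIF activity. The liver X receptors (LXR) are nuclear receptors for oxysterols that govern cholesterol export and fatty acid synthesis.

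All mice carried the PyMT transgene, the polyoma virus middle T oncogene under the mouse mammary tumour virus promoter, which is active in mammary epithelium. The 3 agonist libraries came from mice that took the LXR agonist DMHCA in Medigel cups, continuously and by mouth, from an age of 6 weeks, and the 3 vehicle libraries from mice given vehicle. The series set out to measure how LXR activation bears on tumour progression, and the comparison of agonist with vehicle is its contrast. The age at collection is not given in the sources used here. Titles give 1 code for all libraries of a group, while the table of each library is named with a code of its own. The labels do not say whether these are separate mice, and p-values measure the spread between these libraries, which may be technical in part.

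Libraries held between 36577451 and 42595799 expected counts (RSEM estimates of reads per gene). Values below are counts per 1000000 (CPM) scaled with TMM factors, which set libraries on a common level from the bulk of their genes, or transcripts per 1000000 (TPM), which are also divided by transcript length and serve to compare genes. Vehicle replicate 2 stood apart: small structural RNAs (annotated rRNA, snRNA, snoRNA, scaRNA and the misc_RNA class with 7SL) took 16.1% of its TPM and 5.8% of its counts, against 0.321% to 0.572% of TPM and 0.122% to 0.259% of counts in the other 5 libraries. TPM of messenger RNAs are therefore lower across the board in that library, and results are also given without it. Epithelial markers were abundant throughout, with 9 of 9 detected in all libraries and a summed level of 15655 to 30815 TPM with agonist and 20476 to 26845 with vehicle, most of it the milk protein gene Csn3. Of these markers 7 of 9 had a negative log2 fold change, from -0.01 ± 0.15 for Cdh1 to -0.90 ± 0.27 for Lalba, the milk protein alpha-lactalbumin. Epcam (0.12 ± 0.15) and Wap (0.10 ± 0.94) were positive. Lalba and Krt18 (-0.17 ± 0.14) were lower in all 3 agonist libraries, as were 4.22% of all genes. The CPM of Lalba were 354, 330 and 175 with agonist and 484, 585 and 531 with vehicle. The part of epithelial content or state in the members' values was not tested. The LXR targets Abca1 and Abcg1, cholesterol exporters, were higher with agonist, and their groups did not overlap (log2 fold changes 0.85 ± 0.31 and 0.86 ± 0.23, SE). Groups were apart in that direction for 3.02% of all genes, and 0 genes had an edgeR adjusted p under 0.05, these exporters included.

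Most glycolysis and hypoxia genes had lower mean levels in the agonist tumours, by small amounts, and 0 passed the test over all genes. Of the 22 glycolysis rows, 19 had a negative log2 fold change (agonist minus vehicle) and 3 a positive one, with a median of -0.30 and a range from -1.48 to 0.22. Of the 18 other hypoxia genes, 15 were negative and 3 positive, with a median of -0.17 and a range from -1.04 to 0.16. Over all tested genes 50.7% were negative and the median was 0.00. In edgeR's quasi-likelihood test 0 of 40 rows had a Benjamini-Hochberg adjusted p under 0.05, where the share over all genes was 0.0%. The lowest adjusted value among the members was 0.99.

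Before adjustment, 4 of the 40 rows had p under 0.05, against 3.09% of all genes. They were 3 glycolysis rows (both Aldoa rows and Slc16a3) and the hypoxia gene Ndrg1, all lower with agonist, against 2.37% of all genes lower and 0.719% higher. Over all genes these were 125 higher and 413 lower, a split that became 182 and 331 with upper-quartile scaling. Groups that did not overlap, with every agonist library below every vehicle library, were found for 4 glycolysis rows (Gpi1, Pfkl and both Aldoa rows) and for Ndrg1, against 4.22% of all genes. The opposite order was found for 0 members and for 3.02% of all genes. Leaving out agonist replicate 1 put 7 glycolysis rows under the unadjusted threshold (1.54% of all genes in that fit), and leaving out agonist replicate 3 put 1 there (1.25%). Of the hypoxia genes 3 were under it in the first of these fits. Without vehicle replicate 2 the lower ones were Ndrg1, Car9 and Egln3, and P4ha2 was higher, in a fit where 6.98% of all genes were lower and 6.61% higher at that threshold.

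**Figure D1:**
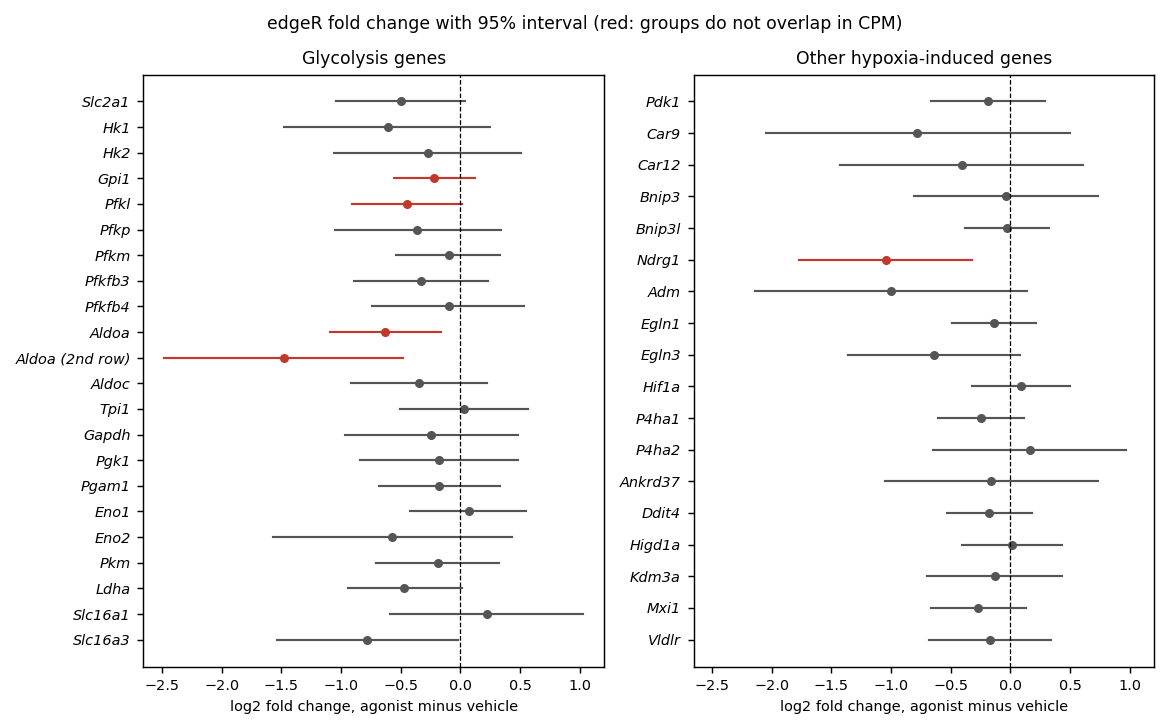
Log2 fold change of agonist minus vehicle for each row (points) with its 95% interval (lines) from edgeR, for glycolysis genes on the left and other hypoxia genes on the right, with groups that do not overlap in red. Most points lie left of 0, from -1.48 for the second Aldoa row to 0.22 for Slc16a1, and the intervals of both Aldoa rows, Slc16a3 and Ndrg1 stay below 0.

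The medians moved with single libraries. Leaving out agonist replicate 1 took the glycolysis median to -0.51, while leaving out agonist replicate 3 took it to -0.15 and vehicle replicate 1 to -0.20. Without the structural-RNA-rich vehicle replicate 2 it was -0.36, with 19 of 22 rows negative. For the hypoxia genes the median was -0.26 in that fit, with 14 of 18 negative, where 49.4% of all genes were. Dropping agonist replicate 1 gave a hypoxia median of -0.27, dropping agonist replicate 3 gave -0.10, and dropping vehicle replicate 3 gave -0.05, with 11 of 18 negative against 50.5% of all genes. Both medians kept a negative sign under each alternative run.

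HIF binds DNA at sites with the core ACGTG or GCGTG, and the promoters of the members were searched for these letters. The windows, from RefSeq on GRCm38.p6, run from 250 bases before to 50 after each annotated start, and 37 of the 39 genes were matched, with 55 windows. Ndrg1 and Bnip3l are the members without one. The letters ACGTG, on either strand, were present in 17 of 33 glycolysis windows (51.5%) and 12 of 22 hypoxia windows (54.5%), and in 19.6% of all 32851 promoter windows of the same length. Windows of one gene can overlap. Counted by gene, ACGTG was in 14 of 21 glycolysis genes and 11 of 16 hypoxia genes, against 21.8% of all genes. GCGTG was in 54.5% and 45.5% of member windows and in 32.4% of all. Median GC content was 61.3% and 67.0% in the members' windows against 52.7% over all, and its part in these shares was not tested. ACGTG also lies within the E-box CACGTG, which was in 12.1%, 9.09% and 7.15% of these windows and counts there once on each strand. The members were listed as genes of glycolysis and of the response to low oxygen, so these shares are a description and not a test. A match describes letters and not a bound site.

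The 250 bases before the start are printed for Aldoa, Slc16a3, Ldha, Car9 and Egln3 as windows with ACGTG, and for Gpi1 as a window without either form. The choice does not cover all members that the results below turn on. The windows of Pfkl and Adm, not printed, held GCGTG and no ACGTG. Capitals mark ACGTG or its reverse complement CACGT, and each line reads 5′ to 3′ on the gene's strand.
Aldoa, chr7:126799255-126799504 (GRCm38.p6, minus strand): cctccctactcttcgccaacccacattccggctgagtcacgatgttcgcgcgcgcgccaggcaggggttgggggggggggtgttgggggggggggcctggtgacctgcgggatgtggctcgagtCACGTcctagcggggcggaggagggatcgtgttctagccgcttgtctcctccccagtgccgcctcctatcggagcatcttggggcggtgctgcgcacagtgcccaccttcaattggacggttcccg
Slc16a3, chr11:120948817-120949066 (GRCm38.p6, plus strand): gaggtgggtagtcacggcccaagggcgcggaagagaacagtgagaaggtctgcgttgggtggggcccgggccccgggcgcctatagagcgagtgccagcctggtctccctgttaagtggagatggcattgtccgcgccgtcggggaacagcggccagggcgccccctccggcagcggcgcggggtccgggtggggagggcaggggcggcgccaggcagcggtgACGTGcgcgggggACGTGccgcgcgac
Ldha, chr7:46845554-46845803 (GRCm38.p6, plus strand): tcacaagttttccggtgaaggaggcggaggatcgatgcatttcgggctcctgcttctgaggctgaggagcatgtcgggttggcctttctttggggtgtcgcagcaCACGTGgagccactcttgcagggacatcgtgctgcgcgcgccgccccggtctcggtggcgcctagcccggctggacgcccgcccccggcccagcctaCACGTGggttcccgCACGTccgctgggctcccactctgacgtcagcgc
Car9, chr4:43506776-43507025 (GRCm38.p6, plus strand): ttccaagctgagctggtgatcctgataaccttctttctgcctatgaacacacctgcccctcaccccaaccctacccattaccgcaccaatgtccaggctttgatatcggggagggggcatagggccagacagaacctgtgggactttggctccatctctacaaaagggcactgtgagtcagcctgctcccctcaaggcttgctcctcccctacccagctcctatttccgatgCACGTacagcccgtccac
Egln3, chr12:54203875-54204124 (GRCm38.p6, minus strand): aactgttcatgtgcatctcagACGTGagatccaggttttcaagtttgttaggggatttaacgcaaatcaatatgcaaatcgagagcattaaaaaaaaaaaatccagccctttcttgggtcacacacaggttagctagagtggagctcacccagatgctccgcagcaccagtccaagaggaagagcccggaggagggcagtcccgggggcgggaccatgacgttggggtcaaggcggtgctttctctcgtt
Gpi1, chr7:34230337-34230586 (GRCm38.p6, minus strand): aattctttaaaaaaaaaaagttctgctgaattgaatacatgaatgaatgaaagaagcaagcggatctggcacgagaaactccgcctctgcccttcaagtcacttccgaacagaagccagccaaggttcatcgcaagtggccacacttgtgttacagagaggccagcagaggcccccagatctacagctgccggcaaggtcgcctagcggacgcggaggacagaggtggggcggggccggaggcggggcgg
The match in Car9 began 18 bases before the start and those in Slc16a3 at 27 and 14 bases before it. In Ldha the pair at 145 and 144 bases and the pair at 48 and 47 bases are each 1 E-box read on both strands, and a further match began at 34 bases. The matches in Aldoa and Egln3 lay farther out, at 126 and 229 bases before the start. Aldoa has 3 annotated windows: the same match lies 202 bases before the start of another, and the third holds neither ACGTG nor GCGTG. Ldha has a second window, with GCGTG and without ACGTG.

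Glucose enters through transporters and is trapped by hexokinase. Slc2a1, which encodes the glucose transporter GLUT1 (chromosome 4, 119108711 to 119137983, plus strand), was at 141, 107 and 76.2 CPM in agonist replicates 1 to 3 and at 172, 138 and 150 CPM in vehicle replicates 1 to 3. Agonist replicate 1 lay just above the lowest vehicle library and the other two agonist libraries lay below all vehicle libraries. The log2 fold change was -0.50 ± 0.23 (95% interval -1.04 to 0.04, edgeR unadjusted p = 0.0649), and it was -0.30 without agonist replicate 3. Hk2, the hexokinase often induced in tumours (chromosome 6, 82725025 to 82774454, minus strand), was at 58.0, 25.2 and 26.4 CPM with agonist and at 51.4, 41.0 and 40.2 with vehicle. Its highest and its lowest library were both agonist libraries, and the log2 fold change of -0.27 ± 0.33 was within that spread (-0.78 without agonist replicate 1). Hk1, the widely expressed hexokinase, ranged from 187 to 330 CPM with agonist and from 271 to 635 with vehicle, where replicate 1 alone made up the upper end. Its log2 fold change was -0.61 ± 0.37, and -0.12 without that library.

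The steps from glucose 6-phosphate to the triose phosphates held 4 of the 5 rows whose groups did not overlap. Aldoa, the main aldolase, which cleaves fructose 1,6-bisphosphate (chromosome 7, 126795234 to 126800751, minus strand), was at 1671, 1305 and 1276 CPM with agonist and at 2318, 1746 and 2495 with vehicle. All agonist libraries were below all vehicle libraries, with agonist replicate 1 and vehicle replicate 2 the closest. The log2 fold change was -0.63 ± 0.20 (95% interval -1.09 to -0.16), a ratio of 0.648, with an edgeR unadjusted p of 0.0144 and an adjusted p of 0.99. Across the alternatives run, each of them keeping the negative sign, its extremes were -0.77 without vehicle replicate 2 and -0.52 on dropping vehicle replicate 3.

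The second Aldoa row (ENSMUSG00000114515, chromosome 7, 126800790 to 126809108, minus strand) is annotated just upstream of the main gene on the same strand and held few reads, from 18 counts in its lowest library. It was at 0.488, 0.854 and 0.955 CPM with agonist and at 2.64, 1.65 and 2.14 with vehicle, again without overlap (log2 fold change -1.48 ± 0.43, edgeR unadjusted p = 0.00948). The rows carry the same gene symbol, and whether the authors' counting could split reads between them was not tested. The second row is included in the counts of glycolysis rows, their medians and their library means, but it is not separate evidence on Aldoa.

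Pfkl, the liver-type phosphofructokinase, the committed step of the pathway (chromosome 10, 77986947 to 78010083, minus strand), was at 489, 478 and 346 CPM with agonist and at 678, 498 and 615 with vehicle. The gap between the groups, from 489 to 498 CPM, was within the spread of either group. Its log2 fold change was -0.45 ± 0.20 (edgeR unadjusted p = 0.0552), and -0.30 without agonist replicate 3. Gpi1, which turns glucose 6-phosphate into fructose 6-phosphate (chromosome 7, 34201330 to 34230336, minus strand), was at 402, 416 and 376 CPM with agonist and at 501, 417 and 469 with vehicle. The groups nearly touched, at 416 and 417 CPM, and the log2 fold change was -0.22 ± 0.15. Pfkp, the platelet-type isoform (chromosome 13, 6579768 to 6648777, minus strand), was at 164, 101 and 69.1 CPM with agonist and at 156, 125 and 147 with vehicle. Agonist replicate 1 had the highest value of all 6 libraries while the other two agonist libraries were below every vehicle library (-0.36 ± 0.30, and -0.74 without agonist replicate 1). The remaining rows of these steps overlapped: Pfkm, the muscle-type isoform, had a log2 fold change of -0.10 ± 0.19, the second aldolase Aldoc -0.35 ± 0.25 and triose phosphate isomerase Tpi1 0.03 ± 0.23.

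Which rows had groups without overlap depended on the scale. With CPM on plain library totals the second Aldoa row and Ndrg1 were apart (2.36% of all genes on that scale), and on deposited TPM the second Aldoa row, Ldha, Slc16a3 and Ndrg1 (1.45%). With TPM rescaled to protein-coding rows, which takes the structural RNAs of vehicle replicate 2 out of the total, the rows were Pfkl, Pfkfb4, both Aldoa rows, Ldha, Slc16a3, Ndrg1 and Mxi1 (4.26%). The second Aldoa row and Ndrg1 were apart on all 4 scales. These added scales were chosen after the data had been seen.

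**Figure D2:**
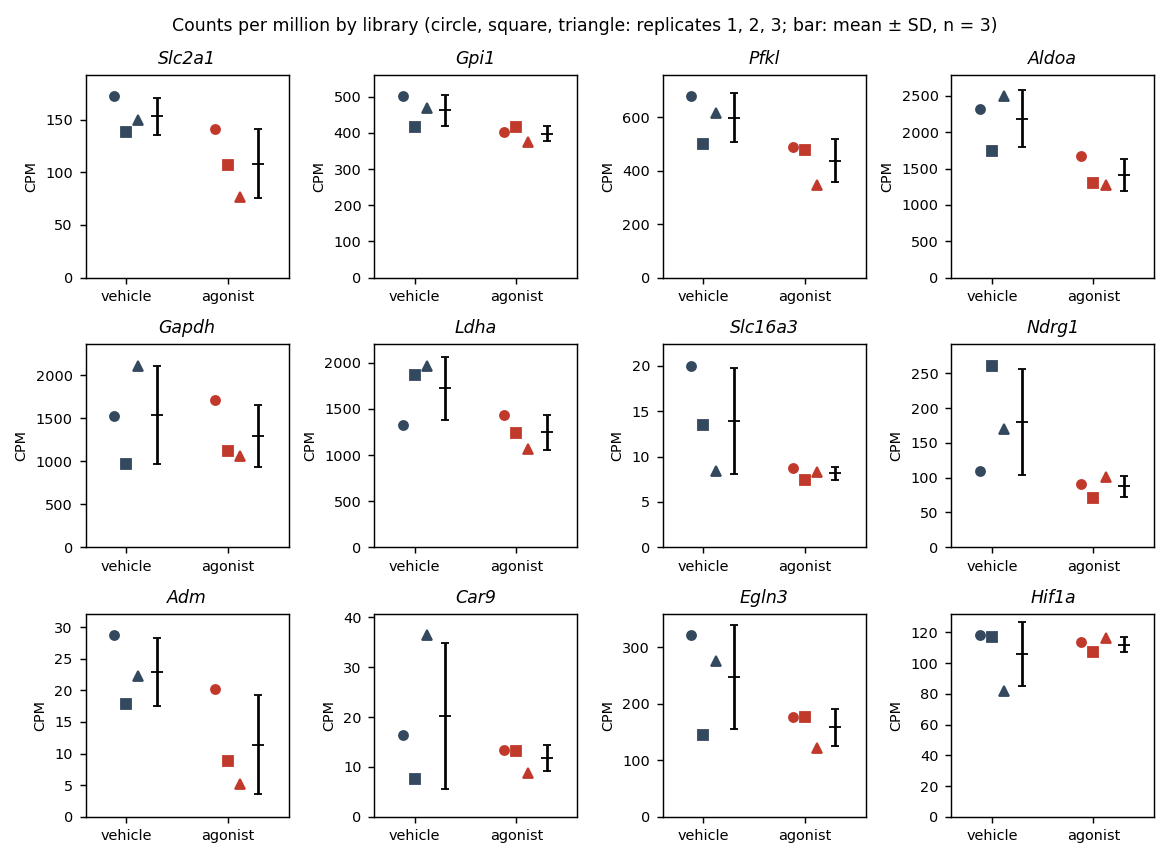
CPM of 12 members in each library (vehicle dark, agonist red, with circle, square and triangle for replicates 1, 2 and 3) and the group mean ± SD (n = 3) as a bar. Aldoa, Pfkl, Gpi1 and Ndrg1 have all agonist libraries below all vehicle libraries, while for Gapdh, Car9 and Hif1a the groups overlap.

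The enzymes of the lower part, from glyceraldehyde 3-phosphate to pyruvate, all had overlapping groups. Pgk1, the first ATP-yielding enzyme of the route (chromosome X, 106187100 to 106203699, plus strand), was at 574, 377 and 256 CPM with agonist and at 502, 391 and 473 with vehicle. Its highest and lowest values were both in agonist libraries, and the log2 fold change was -0.18 ± 0.29. Gapdh, which is often used as a reference gene, ranged from 1057 to 1710 CPM with agonist and from 972 in vehicle replicate 2 to 2109 in vehicle replicate 3, a spread within vehicle wider than the difference between the groups (-0.25 ± 0.31). The mutase Pgam1 (-0.18 ± 0.22), the pyruvate kinase Pkm (-0.19 ± 0.22) and the low-level enolase Eno2 (-0.57 ± 0.43) were negative and the main enolase Eno1 was near 0 (0.07 ± 0.21). Eno1 shares most of its sequence with the Eno1b row, at 313 to 508 CPM, so the split of reads between them is uncertain. Eno1b itself had a log2 fold change of 0.13 ± 0.20.

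Lactate dehydrogenase A, Ldha, turns pyruvate into lactate (chromosome 7, 46841475 to 46855627, plus strand). It was at 1439, 1234 and 1065 CPM with agonist and at 1329, 1869 and 1967 with vehicle. Only agonist replicate 1 and vehicle replicate 1 crossed, and the log2 fold change was -0.47 ± 0.21 (95% interval -0.94 to 0.01, edgeR unadjusted p = 0.0545). Slc16a3, which encodes the lactate exporter MCT4 (chromosome 11, 120948480 to 120960868, plus strand), was at 8.72, 7.37 and 8.31 CPM with agonist and at 20.0, 13.5 and 8.38 with vehicle. The agonist libraries were alike and the vehicle libraries were not, with vehicle replicate 3 at the agonist level. The log2 fold change was -0.78 ± 0.33 (edgeR unadjusted p = 0.046, adjusted p = 0.99), and -0.43 without vehicle replicate 1. Slc16a1, which encodes MCT1, a transporter that works in both directions, was the member with the most positive value, 0.22 ± 0.35, and -0.11 without vehicle replicate 3, where it was lowest. The PFK-2 regulators Pfkfb3 and Pfkfb4, which set the level of the activator fructose 2,6-bisphosphate, had values of -0.33 ± 0.24 (-0.062 without vehicle replicate 2) and -0.10 ± 0.27.

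**Figure D3:**
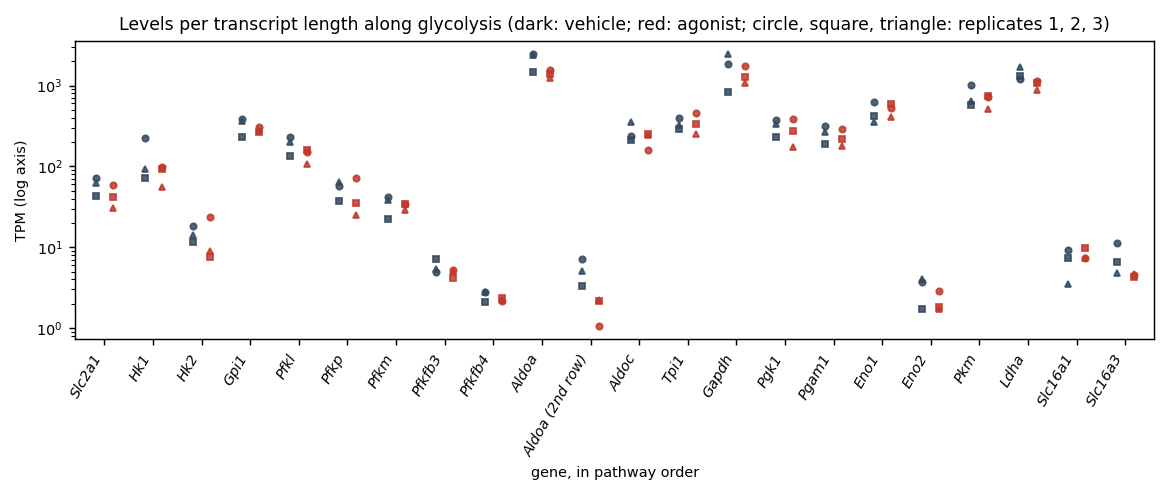
TPM (log axis) of the 22 glycolysis rows in pathway order in each library, vehicle dark and agonist red, with circle, square and triangle for replicates 1, 2 and 3. Aldoa, Gapdh and Ldha lie highest and Pfkfb4, Eno2 and the second Aldoa row lowest, and the groups interleave for most genes.

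Per transcript length the pathway spanned a wide range of levels. The highest mean TPM over the 6 libraries were those of Aldoa (1747), Gapdh (1527), Ldha (1218) and Pkm (704), and the lowest were those of the second Aldoa row (3.48), Eno2 (2.65) and Pfkfb4 (2.40). At the entry step Slc2a1 averaged 51.5 TPM, Hk1 106 and Hk2 14.0, and the lactate transporters Slc16a1 and Slc16a3 averaged 7.48 and 6.05. The ranges over libraries of Aldoa (1229 to 2436 TPM) and Gapdh (841 to 2425 TPM) overlapped, so the order of Aldoa and Gapdh is not set by these data. Summed over the 22 rows, the genes took between 0.551% and 0.968% of all TPM in a library.

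Shares of paralogues within a family do not depend on the library's total. Among the phosphofructokinases Pfkl made up 66.7% of the summed TPM on average, Pfkp 19.5% and Pfkm 13.8%. The Pfkm share was 13.2%, 15.0% and 17.6% with agonist and 12.7%, 11.4% and 12.8% with vehicle, so all agonist libraries were above all vehicle libraries, by a mean of 2.97 percentage points. Skeletal muscle markers, whose tissue uses this isoform, summed to 441 to 652 TPM with agonist and 408 to 456 with vehicle, with 8 of 8 positive in log2 fold change and 0 of them at 0. Their part in the Pfkm share was not tested. MCT4 made up 38.2%, 30.0% and 38.9% of the summed Slc16a1 and Slc16a3 TPM with agonist and 55.0%, 46.9% and 57.9% with vehicle, a mean difference of -17.6 percentage points without overlap. In vehicle replicate 3 the high share went with low Slc16a1, at 3.46 TPM against 7.32 to 9.85 in the other libraries. Slc16a3 itself was at 4.76 TPM there, close to the 4.23 to 4.66 TPM of the agonist libraries. For the Pfkm and MCT4 shares the two-sided exact permutation p was 0.1, the smallest that 3 libraries against 3 allow. It was 0.45 after Benjamini-Hochberg adjustment over the 9 shares computed. The other 7 shares overlapped between the groups. On average Hk2 made up 12.6% of its sum with Hk1, Aldoc 12.7% of its sum with the main Aldoa row and P4ha2 33.2% of its sum with P4ha1. Eno2 made up 0.564% of its sum with Eno1, and Pfkfb4 31.4% of its sum with Pfkfb3. Further paralogues were left out of these sums, among them Eno1b (mean 310 TPM), Eno3 (31.1 TPM) and Pfkfb2 (10.8 TPM).

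**Figure D4:**
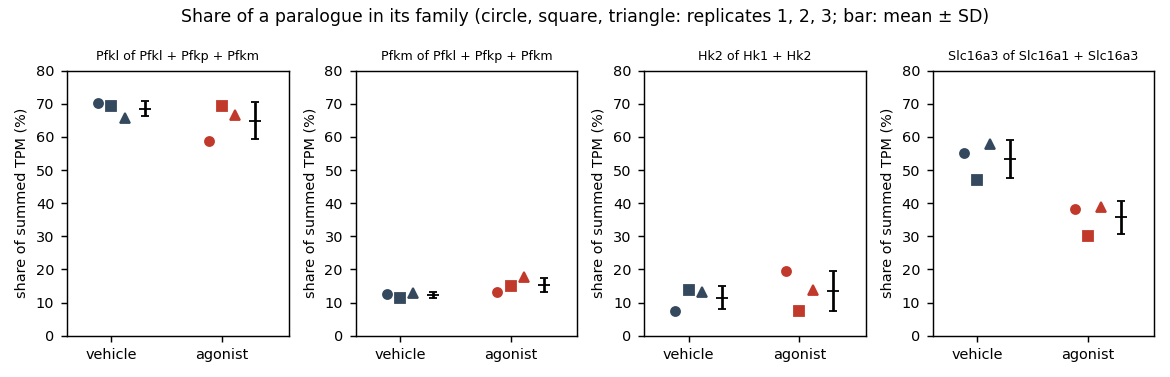
Share (%) of a paralogue in the summed TPM of the genes named above each panel, in each library, with the group mean ± SD (n = 3). Circle, square and triangle mark replicates 1, 2 and 3. The Pfkm share is higher and the Slc16a3 share lower in all 3 agonist libraries, while those of Pfkl and Hk2 overlap.

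Among the genes induced by hypoxia outside glycolysis, Ndrg1 stood lowest with agonist. Ndrg1 encodes a cytoplasmic protein of differentiation and stress that is a common hypoxia marker (chromosome 15, 66929318 to 66969640, minus strand). It was at 91.1, 70.3 and 101 CPM with agonist and at 110, 261 and 170 with vehicle. All agonist libraries lay below all vehicle libraries, with vehicle replicate 1 only just above them. The log2 fold change was -1.04 ± 0.31 (95% interval -1.77 to -0.32), a ratio of 0.485, with an edgeR unadjusted p of 0.0111 and an adjusted p of 0.99. Without vehicle replicate 2, which held its highest value, the log2 fold change was -0.68.

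Adm, which encodes the vasodilator peptide adrenomedullin (chromosome 7, 110627661 to 110629820, plus strand), was at 20.2, 8.88 and 5.23 CPM with agonist and at 28.7, 17.9 and 22.2 with vehicle. Only agonist replicate 1 reached into the vehicle range. The ratio of agonist to vehicle was 0.499 (95% interval of the log2 fold change -2.14 to 0.14, edgeR unadjusted p = 0.0758). Dropping agonist replicate 1 gave a log2 fold change of -1.70, and dropping agonist replicate 3 gave -0.66. The other targets of this kind were negative and closer to 0: Mxi1, an antagonist of Myc, at -0.27 ± 0.17, Ddit4, an inhibitor of mTORC1, at -0.18 ± 0.15, the lipoprotein receptor Vldlr at -0.17 ± 0.22, Ankrd37 at -0.16 ± 0.38 and the histone demethylase Kdm3a at -0.13 ± 0.24. Vldlr turned to 0.073 and Kdm3a to 0.17 without vehicle replicate 3, and Ankrd37 to 0.10 without agonist replicate 2.

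The carbonic anhydrases, which buffer acid at the cell surface, varied most among vehicle libraries. Car9 (chromosome 4, 43506966 to 43513729, plus strand) was at 13.4, 13.1 and 8.83 CPM with agonist and at 16.5, 7.59 and 36.4 with vehicle. Vehicle libraries held both its highest and its lowest value. The log2 fold change of -0.78 ± 0.53 was -0.04 without vehicle replicate 3 and -1.16 without vehicle replicate 2. Car12 followed the same vehicle libraries, from 238 CPM in vehicle replicate 2 to 649 in vehicle replicate 3 (-0.41 ± 0.43, and 0.094 without vehicle replicate 3). Car12 also varied with agonist, at 238, 451 and 232 CPM in replicates 1 to 3.

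The oxygen sensors differed among themselves. Egln3, a prolyl hydroxylase that HIF itself induces (chromosome 12, 54178981 to 54203860, minus strand), was at 177, 177 and 121 CPM with agonist and at 321, 144 and 276 with vehicle. Vehicle replicate 2 alone was within the agonist range, and the log2 fold change was -0.64 ± 0.31 (edgeR unadjusted p = 0.073), -0.92 without that library and -0.41 without vehicle replicate 1. Egln1, the main oxygen sensor, had -0.14 ± 0.15. Hif1a (chromosome 12, 73901375 to 73947530, plus strand) was at 114, 107 and 116 CPM with agonist and at 118, 117 and 81.6 with vehicle. Apart from vehicle replicate 3 the libraries lay close together, and the log2 fold change was 0.09 ± 0.18 (95% interval -0.32 to 0.50).

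Of the mitochondrial targets, Bnip3, Bnip3l and Higd1a had values near 0, and Pdk1 was negative by less than its SE. Pdk1, the kinase that keeps pyruvate out of the citric acid cycle (chromosome 2, 71873224 to 71903858, plus strand), was at 41.1, 40.9 and 32.3 CPM with agonist and at 36.2, 37.9 and 56.3 with vehicle. The groups overlapped and the log2 fold change was -0.19 ± 0.21. Bnip3, a mitophagy receptor (chromosome 7, 138890836 to 138909519, minus strand), was at 59.6, 24.9 and 27.7 CPM with agonist and at 37.7, 36.1 and 41.4 with vehicle. Agonist replicate 1 was the highest library and the other two agonist libraries the lowest, which gave a log2 fold change of -0.04 ± 0.33 (-0.54 without agonist replicate 1). Its relative Bnip3l was at -0.03 ± 0.15 and the respiratory chain factor Higd1a at 0.01 ± 0.18. Bnip3 and Bnip3l turned positive with upper-quartile scaling. Of the collagen prolyl hydroxylases, P4ha1 was at -0.25 ± 0.15 and P4ha2 at 0.16 ± 0.35, the latter 0.64 without vehicle replicate 2.

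**Figure D5:**
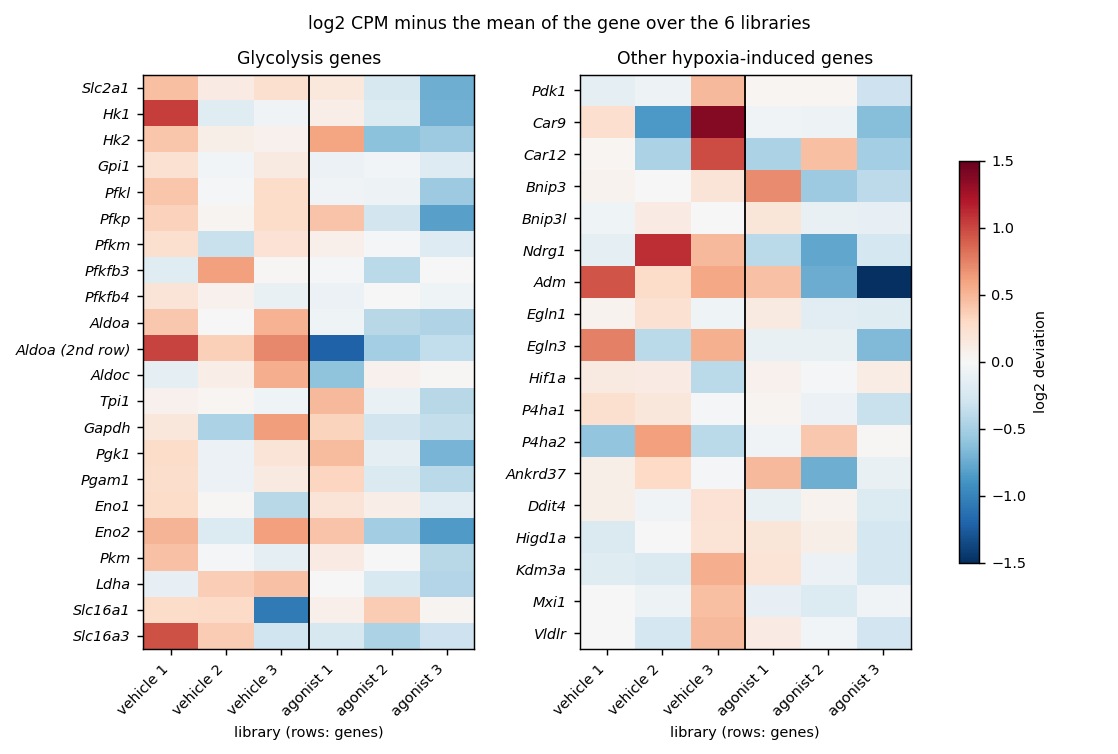
Log2 CPM of each member minus its mean over the 6 libraries (colour, limited at 1.5 either way), with vehicle libraries left of the line and agonist libraries right of it. Agonist replicate 3 is blue for most rows and agonist replicate 1 is mixed, while Car9 is darkest red in vehicle replicate 3 and Ndrg1 in vehicle replicate 2.

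The libraries of a group were not alike across the members. Agonist replicate 3 was the lowest of the 6 libraries for 12 of 22 glycolysis rows and 11 of 18 hypoxia genes, where it was the lowest for 11.4% of all tested genes. Agonist replicate 1 was the highest for 5 of 22 glycolysis rows (22.7%) and 3 of 18 hypoxia genes (16.7%), near its 15.8% of all genes. They were Hk2, Pfkp, Tpi1, Pgk1, Pgam1, Bnip3, Bnip3l and Ankrd37. Vehicle replicate 1 was the highest for 10 of 22 glycolysis rows (21.8% of all genes) and vehicle replicate 3 for 8 of 18 hypoxia genes (19.0% of all genes). The mean log2 deviation over the glycolysis rows was 0.06, -0.19 and -0.39 in agonist replicates 1 to 3 and 0.34, 0.05 and 0.13 in vehicle replicates 1 to 3. Agonist replicate 1 was thus above vehicle replicate 2. Over the hypoxia genes it was 0.07, -0.15 and -0.33 against 0.07, 0.03 and 0.31, with agonist replicate 1 level with vehicle replicate 1.

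Markers of other cell types also differed between these libraries. Red cell markers (5 of 5 detected in every library) summed to 4871 TPM in agonist replicate 1 and to 1243 in agonist replicate 3, the ends of the range, against 1976 to 3292 with vehicle. Fibroblast markers (7 of 7) summed to 121 TPM in vehicle replicate 3 and 1253 in vehicle replicate 2, against 696 to 966 with agonist, and endothelial markers (8 of 8) to 15.2 and 41.3 TPM in the same vehicle libraries against 26.3 to 41.0. Leukocyte markers (7 of 7) ranged from 130 to 216 TPM with agonist and from 49.9 to 148 with vehicle, adipocyte markers (5 of 5) from 112 to 769 and from 44.0 to 1057, and myoepithelial markers (6 of 6) from 131 to 304 and from 41.1 to 146. The leading leukocyte marker, S100a8, was at 55.8 to 151 TPM with agonist and 19.1 to 69.9 with vehicle. Log2 fold changes were positive for 7 of 7 fibroblast, 7 of 8 endothelial, 5 of 6 myoepithelial and 5 of 7 leukocyte markers. They were positive for 2 of 5 red cell markers and 1 of 4 tested adipocyte markers. In bulk tumours, fewer cells of a type and less RNA per cell cannot be told apart, and the part of these cell types in the members' values was not tested.

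Other genes of the same routes did not all move with the members. Of 33 further genes of glucose metabolism, 29 were tested, 10 had negative and 19 positive log2 fold changes, and the median was 0.12. At an unadjusted p under 0.05, 2 were lower (2.37% of all genes) and 1 higher (0.719% of all genes), and 0 had an adjusted p under 0.05 by edgeR. In CPM 2 of the 29 were lower in all 3 agonist libraries, against 4.22% of all genes. They were Gys1, glycogen synthase (-0.68 ± 0.22), and Pdk2, a pyruvate dehydrogenase kinase (-0.39 ± 0.13). The glycogen phosphorylase Pygl was at -0.72 ± 0.35 with overlap. On deposited TPM the groups of Gys1 and Pdk2 overlapped and those of Pygl did not. Fbp2, the muscle-type fructose bisphosphatase, was at 0.732, 12.3 and 4.61 CPM with agonist and 0.547, 2.08 and 0.522 with vehicle (2.49 ± 1.05), and at 1.35 without agonist replicate 2, which held the highest value.

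Of 36 further genes of the HIF pathway, 35 were tested, 20 negative and 15 positive, with a median of -0.04. Here too 2 were lower and 1 higher at an unadjusted p under 0.05, against the same 2.37% and 0.719% of all genes, and 0 had an adjusted p under 0.05 by edgeR. Vegfa, the angiogenic growth factor, was at 94.5, 74.6 and 62.5 CPM with agonist and 122, 106 and 251 with vehicle, without overlap (-1.05 ± 0.35, and -0.56 without vehicle replicate 3). Zfp395, a zinc finger gene, was likewise lower in all 3 agonist libraries (-0.82 ± 0.25), and so was Arnt, the gene of HIF's partner (-0.20 ± 0.14). Ccng2, a cyclin that restrains the cell cycle, was higher in all 3 (0.41 ± 0.17), and the histone demethylase Kdm4b overlapped (-0.33 ± 0.17). Thus 3 genes were lower and 1 higher without overlap in CPM, against 4.22% and 3.02% of all genes. On deposited TPM the groups of Zfp395 and Arnt overlapped, while those of Vegfa and Ccng2 did not. The HIF-2α gene Epas1 (0.06 ± 0.36) and Vhl, whose product directs HIF-α to destruction (0.09 ± 0.20), were near 0.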

How the data were processed

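RNA sequencing libraries of mammary tumour, 3 labelled agonist and 3 vehicle, were deposited as one table each. Per the file headers, the authors deposited RSEM expected counts, which need not be whole (10.1% to 10.5% of rows were not), and TPM per gene. FPKM was not used. Per the submitters' processing notes, the tools included STAR 2.7.9a and RSEM 1.3.1, and the build was GRCm38. The annotation release and the strand setting were not given in the sources used here. Therefore overlapping genes, and near-identical copies such as Eno1 and Eno1b, are uncertain.

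Expected counts were rounded and tested in R 4.3.3 with edgeR 4.0.16: filterByExpr (minimum count 10, minimum total 15), TMM factors, robust quasi-likelihood F test of agonist against vehicle over 17396 rows, all 6 libraries, no covariates, Benjamini-Hochberg adjustment over all of them, called under 0.05. The SE was derived from F as the size of the log2 fold change over its root. The procedure was tested on simulated data with changes larger than the members' median changes, so changes as small as those medians were not covered. Shares of TPM were compared with two-sided exact permutation tests. Positions are GENCODE M21 on GRCm38. No pair of libraries had more than 0.77% equal counts. A floor of 3 counts lies at 0.0704 to 0.082 CPM and covers counting error only.

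Members, lists and the naming rule were chosen with earlier results of these data known, so lists are described and not tested. Values in every library are given for Slc2a1, Hk2, Pfkp, Pgk1, Ldha, Slc16a3, Pdk1, Car9, Ndrg1, Bnip3, Adm, Egln3, Hif1a and further members without overlap or with an unadjusted p under 0.05. Of the other pathway lists, the 4 genes with the smallest p are named, with Vegfa, Epas1 and Vhl. Eno1b is named as a near-identical copy, and Arnt as a further gene without overlap. Alternatives were DESeq2 size factors, upper-quartile scaling, no low-count filter, the DESeq2 1.42.0 Wald test, a replicate block, leaving out each library and, chosen after seeing the data, limma-trend (limma 3.58.1) on log2(TPM + 1).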

Additional observations from a re-analysis of the deposited data

How the results depend on the processing

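The second Aldoa row held as few as 18 counts in a library, and all other members held more. Over all genes, the count with an adjusted p under 0.05 was 0 by edgeR (538 at an unadjusted p under 0.05, 125 higher and 413 lower, and 182 higher and 331 lower with upper-quartile scaling) and 5 with the DESeq2 Wald test, which called 0 members (772 genes at an unadjusted p under 0.05). The 538 became 847 without the low-count filter, which tests more genes, and ran from 315 (without agonist replicate 3) to 2442 (without vehicle replicate 2) with libraries left out. By limma-trend on log2(TPM + 1), 0 genes had an adjusted p under 0.05 and 375 an unadjusted one, 238 of them higher. The median log2 fold change of the glycolysis rows ran from -0.51 to -0.15 with libraries left out and that of the hypoxia genes from -0.27 to -0.05. The causes were not tested.

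Of 600 values of 50 named rows under alternatives, 570 kept their sign and 30, in 17 genes, did not. Outside the left-out libraries these were Tpi1 with the replicate block (-0.018), Bnip3 (0.010) and Bnip3l (0.0096) with upper-quartile scaling and Bnip3l by limma-trend on TPM (0.16). Leaving libraries out, log2 fold changes ran from -0.26 to 0.21 for Tpi1, -0.50 to 0.051 for Gapdh, -0.53 to 0.062 for Pgk1, -0.10 to 0.23 for Eno1, -0.11 to 0.41 for Slc16a1, -0.31 to 0.043 for Pdk1, -0.80 to 0.094 for Car12, -0.54 to 0.18 for Bnip3, -0.13 to 0.023 for Bnip3l, -0.065 to 0.18 for Hif1a, -0.059 to 0.64 for P4ha2, -0.53 to 0.10 for Ankrd37, -0.095 to 0.13 for Higd1a, -0.27 to 0.17 for Kdm3a, -0.32 to 0.073 for Vldlr, -0.23 to 0.46 for Epas1 and -0.10 to 0.19 for Vhl. The group difference in share, in percentage points, ran from -0.821 to 5.15 for Hk2, -3.54 to 2.66 for Pfkp (-0.128 from expected counts) and -3.08 to 3.53 for Pfkfb4.

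The replicate numbers were not shown to pair libraries: same-numbered libraries had correlations of their deviations of 0.172, 0.038 and 0.063, and other pairs ran from -0.109 to 0.055. Agonist replicates 1 and 3 and each vehicle library correlated best with the same-numbered library. Agonist replicate 2 correlated best with vehicle replicate 3 (0.055). With the replicate block 488 genes had an unadjusted p under 0.05 and 0 an adjusted one, and the medians were -0.32 and -0.17.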
